A study of Mus musculus with 12 samples.

Results

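Homologous recombination, Fanconi and checkpoint genes were followed in mouse liver under excess ChREBP. They were chosen by name, as 34 genes of break repair, crosslink repair and damage signalling, and 33 of them had a row in the array table, out of 19938 genes with one. The other one, Xrcc2, was not analysed here. Livers were taken from male C57BL/6J mice in the fed state, 3 weeks after a tail vein injection of adenovirus for GFP or for ChREBP, and the labelled age is 8 weeks. GFP served as control protein, and ChREBP, the product of Mlxipl, is a transcription factor that responds to glucose. There were 6 mice per virus, described as biological replicates, and each liver was read on 1 Affymetrix mouse gene array. All 12 mice carried an adenovirus, no uninjected mice are part of the comparison, and the sources used here do not say which species or isoform of ChREBP the virus carried. The study describes dropping animals that failed to overexpress GFP or Phf2 from its adenovirus cohorts, and whether this was done for these mice is not given.

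A double-strand break is bound by the Mre11, Rad50 and Nbn complex, which activates the kinase Atm, whereas single-stranded DNA at a stalled fork calls in the kinase Atr. Atm acts mainly through Chek2 and Atr through Chek1, and both routes hold back the cell cycle while DNA is damaged. In homologous recombination the break ends are cut back to single strands, Brca1, Brca2 and their partners prepare these strands for exchange, and the sister chromatid is copied. The Fanconi pathway marks a crosslinked fork by attaching ubiquitin to Fancd2 and hands the lesion to the same machinery. Homologous recombination uses a sister chromatid. Many but not all of its genes are known to be expressed more in cells that replicate DNA, which are rare in adult liver.

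The promoters of 5 members that rose, and of Chek2, which did not pass the test, are shown because many genes of this machinery are known to be driven through E2F sites. This choice favours promoters with E2F letters. Among the 5, Brca1 holds none, and Atr, Blm, Rad1 and Rad18, which rose and hold none, are not shown. Each runs from 250 bases before to 50 bases after the transcription start, 5′ to 3′ on the strand of the gene, as RefSeq gives it for GRCm38.p6. Chek1 lies at chr9:36726609-36726908 (minus strand), Brca1 at chr11:101551906-101552205 (minus), Brca2 at chr5:150522371-150522670 (plus), Clspn at chr4:126556730-126557029 (plus), the first of 2 Rad51c entries at chr11:87404457-87404756 (minus) and Chek2 at chr5:110839733-110840032 (plus). Capitals mark E2F letters (TTTGGCGC, TTTCGCGC, TTTCCCGC or TTTGCCGC, in full or without the final C) and CCAAT, each on either strand, so that GCGGGAAA and ATTGG are the same words read from the other strand.
Chek1: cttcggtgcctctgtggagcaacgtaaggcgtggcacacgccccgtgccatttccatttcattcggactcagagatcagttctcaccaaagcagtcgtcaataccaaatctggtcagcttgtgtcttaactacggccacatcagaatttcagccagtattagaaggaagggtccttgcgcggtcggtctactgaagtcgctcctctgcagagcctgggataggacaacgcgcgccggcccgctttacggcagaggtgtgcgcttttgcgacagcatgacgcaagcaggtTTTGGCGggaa
Brca1: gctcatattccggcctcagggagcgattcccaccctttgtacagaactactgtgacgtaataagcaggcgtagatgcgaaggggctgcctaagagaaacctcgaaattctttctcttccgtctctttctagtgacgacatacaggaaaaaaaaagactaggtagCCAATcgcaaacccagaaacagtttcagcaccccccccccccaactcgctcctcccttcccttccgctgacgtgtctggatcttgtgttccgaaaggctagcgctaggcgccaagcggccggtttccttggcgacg
Brca2: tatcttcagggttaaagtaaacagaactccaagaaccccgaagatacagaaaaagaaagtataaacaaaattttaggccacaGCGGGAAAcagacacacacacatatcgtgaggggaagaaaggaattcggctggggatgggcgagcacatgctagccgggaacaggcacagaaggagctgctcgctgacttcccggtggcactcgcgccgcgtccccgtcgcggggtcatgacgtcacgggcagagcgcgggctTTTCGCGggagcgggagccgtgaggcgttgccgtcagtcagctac
Clspn: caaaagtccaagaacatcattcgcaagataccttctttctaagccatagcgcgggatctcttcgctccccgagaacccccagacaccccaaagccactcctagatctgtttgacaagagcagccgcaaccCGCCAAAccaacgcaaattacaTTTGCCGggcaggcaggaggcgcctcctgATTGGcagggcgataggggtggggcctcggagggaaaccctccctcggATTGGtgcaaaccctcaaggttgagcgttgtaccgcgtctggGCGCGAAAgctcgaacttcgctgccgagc
Rad51c: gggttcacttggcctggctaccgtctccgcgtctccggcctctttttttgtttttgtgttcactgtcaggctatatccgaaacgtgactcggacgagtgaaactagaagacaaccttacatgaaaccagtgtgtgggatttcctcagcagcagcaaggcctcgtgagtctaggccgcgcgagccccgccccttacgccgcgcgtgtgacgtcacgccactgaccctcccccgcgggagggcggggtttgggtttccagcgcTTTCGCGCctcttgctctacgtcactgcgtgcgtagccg
Chek2: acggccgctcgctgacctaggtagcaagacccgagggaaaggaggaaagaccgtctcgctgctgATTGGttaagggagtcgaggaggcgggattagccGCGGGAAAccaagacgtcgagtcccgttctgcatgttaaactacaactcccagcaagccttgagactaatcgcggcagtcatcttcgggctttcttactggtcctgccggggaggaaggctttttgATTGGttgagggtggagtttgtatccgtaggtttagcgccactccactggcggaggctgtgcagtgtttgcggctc

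Promoter entries were found for 27 of the 33 members, of which 11 rose, 1 fell and 15 did not pass. A full E2F word (TTTGGCGC, TTTCGCGC, TTTCCCGC or TTTGCCGC, either strand) was held by 6 of the 27, or 22.2%, against 2.61% of the 27025 genes with an entry and 3.48% of the 15614 of them that were tested. The 6 were Brca2, Clspn and Rad51c, which rose, and Bard1, Chek2 and Fancg, which did not pass. The word therefore stood in 3 of 11 promoters of members that rose and in 3 of 15 of those that did not pass. A shorter word without the final C, added after the sequences were seen, stood in 6 of 11 and in 3 of 15, against 9.71% of tested genes, the additional promoters being those of Chek1, Brip1 and Rad51b. In Chek1 it began 39 bases after the start. CCAAT was held by 16 of the 27, or 59.3%, against 41.7% of tested genes, with 5 among the 11 that rose, 10 among the 15 that did not pass and Atm, which fell. TTTGAA, the CHR word, was held by Bard1 and Rad51b only, or 7.41%, against 17.3% of tested genes. The E-box word CACGTG was held by 0 of the 27, against 9.50% of tested genes. These letters were not found in the entries of Atr, Rad1, Rad18, Fancl, Rad17 and Rad52. The matches describe these windows and were not tested.

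Setting ChREBP against GFP livers addresses which transcripts of this machinery differ when ChREBP is in excess. Values are log2 values after RMA, a normalization that summarises all probes of a transcript, and every difference is ChREBP minus GFP. Of the 33 members, 15 rose and 2 fell at an adjusted p under 0.05 (limma, adjusted over all 19938 genes), and 16 did not pass. Over all genes tested, 13.3% rose and 13.7% fell at this threshold, against 45.5% and 6.06% of the members. The members were chosen with earlier results of these data known, so the shares describe the list and test nothing. The median difference was 0.23 over the members and -0.04 over all genes. Differences above 0 were found for 30 members, of which 15 did not pass, and below 0 for Atm, Nbn and Xrcc3. A change of 1.5-fold or more at an unadjusted p below 0.05 was found for 7 members, all of them higher (Chek1, Rad18, Brca2, Rad51b, Brca1, Blm and Rad51c), or 21.2% against 5.7% of all genes. The 6 ChREBP values lay above all 6 GFP values for 11 members, or 33.3% against 8.33% of all genes. They lay below all GFP values for 0 members, against 6.83% of all genes. RNA came from whole liver, so more cells of a kind that expresses a gene and more RNA per cell cannot be told apart.

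**Figure D1:**
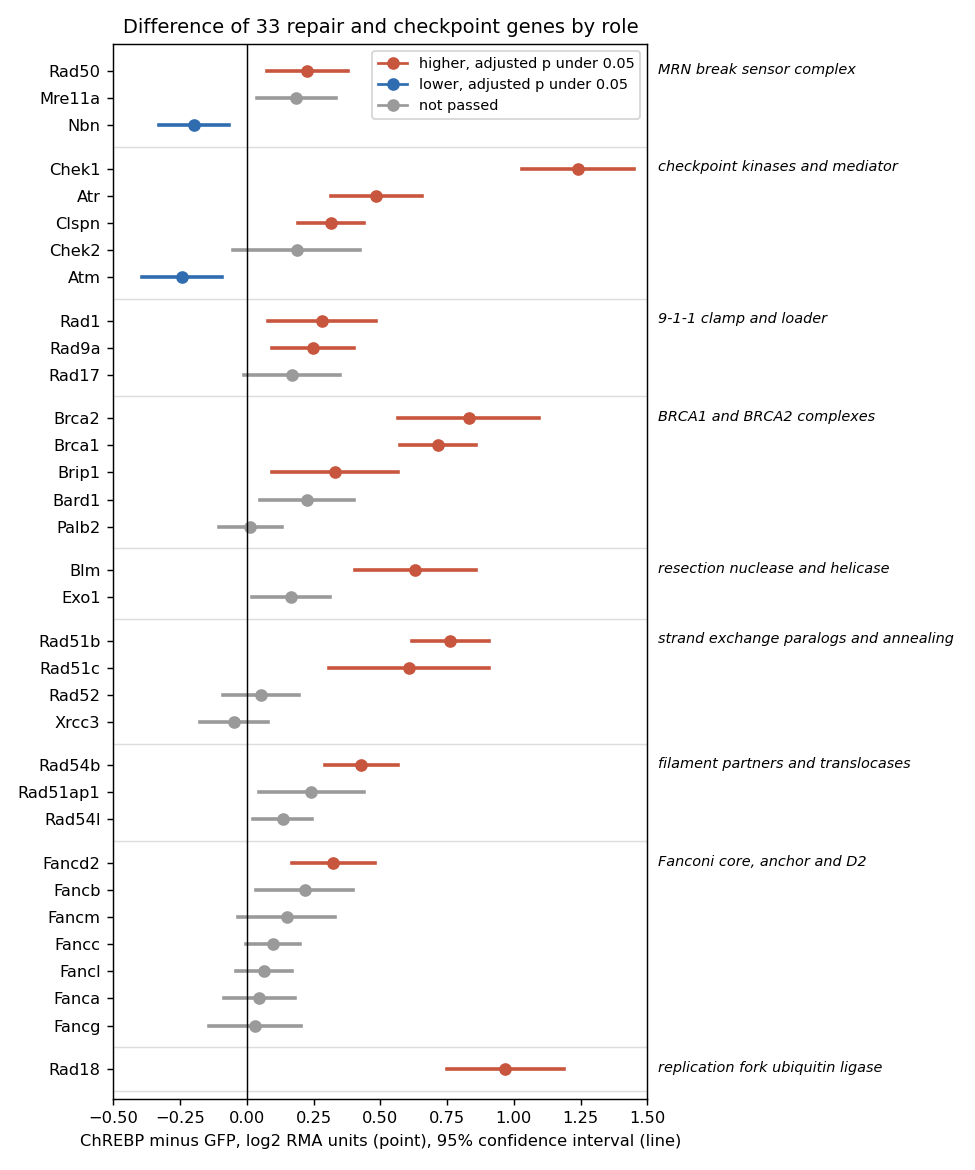
Difference of each member between ChREBP and GFP livers in log2 units (points, n = 6 per group) with its 95% confidence interval (lines), grouped by role, red for members that rose, blue for those that fell and grey for those that did not pass. Chek1 stands furthest to the right at 1.24, and Atm and Nbn are the members whose interval lies below 0.

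Before the single genes, some arrays need naming. Mlxipl, the gene of ChREBP, was 9.32 ± 0.23 on GFP arrays and 10.89 ± 0.08 on ChREBP arrays (SD, n = 6 each), a difference of 1.57, with every ChREBP array (lowest 10.74) above every GFP array (highest 9.61) (exact two-sided permutation test over 924 assignments, p = 0.00216). Array medians lay between 5.96 and 6.05. Pancreatic acinar transcripts averaged 12.07 on ChREBP 4 and 11.88 on ChREBP 5. They averaged 7.20 on ChREBP 2 and 6.36 on ChREBP 6, against 5.65 to 5.83 on the remaining arrays. Adipoq, an adipocyte gene, stood at 8.52 on GFP 4, 8.32 on GFP 6 and 9.02 on ChREBP 6, against 5.01 to 7.25 on the other 9 arrays. Without ChREBP 4 and ChREBP 5, 16 members rose and 0 fell. Without GFP 6 and ChREBP 6, 12 rose and 0 fell, and the same counts were obtained when GFP 4 was left out as well. These fits hold fewer arrays, and shares over all genes are not given beside them. Atm differed by -0.21, -0.22 and -0.24 in them, against -0.24 on all 12 arrays. In these counts, fewer arrays and the loss of these particular arrays cannot be told apart.

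Among the checkpoint kinases, Chek1 rose most, whereas on the Atm route Atm was called lower and Chek2 did not pass. Chek1, the kinase that carries the Atr signal, was 5.75, 5.92 and 5.98 at the lowest, median and highest GFP array and 6.84, 7.12 and 7.48 in ChREBP livers. All ChREBP values were above all GFP values, and the rise was 1.24 (SE 0.10, 2.36-fold, adjusted p = 5.48e-07). This difference was larger than those of 98.8% of the genes tested. Atr, the sensor kinase of stalled forks, ran from 6.89 over 7.24 to 7.31 in GFP livers and from 7.40 over 7.69 to 7.77 in ChREBP livers. The groups did not overlap, although the lowest ChREBP array, ChREBP 4, was close to the highest GFP array, and the rise was 0.49 (SE 0.08, adjusted p = 0.000403). Clspn, the mediator that brings Chek1 to Atr, ran from 5.63 over 5.68 to 5.76 and from 5.83 over 6.03 to 6.15. Its rise was 0.32 (SE 0.06, adjusted p = 0.000987), again without overlap.

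Atm, the kinase of double-strand breaks, went the other way. Its lowest, median and highest values were 7.02, 7.14 and 7.44 in GFP livers and 6.84, 6.96 and 7.04 in ChREBP livers. The highest ChREBP array lay above the lowest GFP array, 5 of 6 ChREBP arrays lay below all GFP arrays, and the fall was -0.24 (SE 0.07, adjusted p = 0.0187). Leaving out the arrays ChREBP 4 and 5 gave -0.21 (adjusted p = 0.0750), leaving out GFP 6 together with ChREBP 6 gave -0.22 (adjusted p = 0.0537), and dropping GFP 4 as well gave -0.24 (adjusted p = 0.0637), so the call was lost in each case. Chek2, the effector of Atm, differed by 0.19 (95% interval -0.05 to 0.42, adjusted p = 0.229) and did not pass.

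The MRN complex, which finds the break and tethers its ends, had 1 member called higher and 1 called lower, neither under every alternative. Rad50, its tethering ATPase, rose by 0.23 (SE 0.07, adjusted p = 0.0287), with 4 of 6 ChREBP arrays above all GFP arrays. The call was lost under 8 of the 24 alternatives tried, among them the repeated quantile normalization and leaving out any one of GFP 1, GFP 4, GFP 6, ChREBP 2 or ChREBP 3. Mre11a, the nuclease, differed by 0.19 and did not pass (adjusted p = 0.0623). Nbn, the subunit that recruits Atm, was 8.57, 8.79 and 8.92 in GFP livers and 8.42, 8.59 and 8.64 in ChREBP livers. The groups overlapped, with 2 ChREBP arrays below all GFP arrays, and the fall was -0.20 (SE 0.06, adjusted p = 0.0286). It no longer passed when any one of GFP 1, GFP 4, GFP 6, ChREBP 2 or ChREBP 4 was left out, nor without ChREBP 4 and ChREBP 5 (-0.17, adjusted p = 0.0845), and in all it was lost under 9 alternatives. The second row of Nbn differed by -0.11.

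The clamp that is loaded at damaged forks showed small differences. Rad9a, a clamp subunit, rose by 0.25 (SE 0.07, adjusted p = 0.0189), a call lost under 3 of the 24 alternatives, 2 of which left out GFP 6 and ChREBP 6. Rad1, another clamp subunit, ran from 6.52 over 6.64 to 7.004 in GFP livers and from 6.64 over 7.02 to 7.15 in ChREBP livers. Its groups overlapped over most of their range, and its rise of 0.28 (SE 0.09, adjusted p = 0.0408) was lost under 15 of the 24 alternatives, including the loss of any single array other than GFP 4 and ChREBP 4. Rad17, which loads the clamp, differed by 0.17 and did not pass (adjusted p = 0.147).

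**Figure D2:**
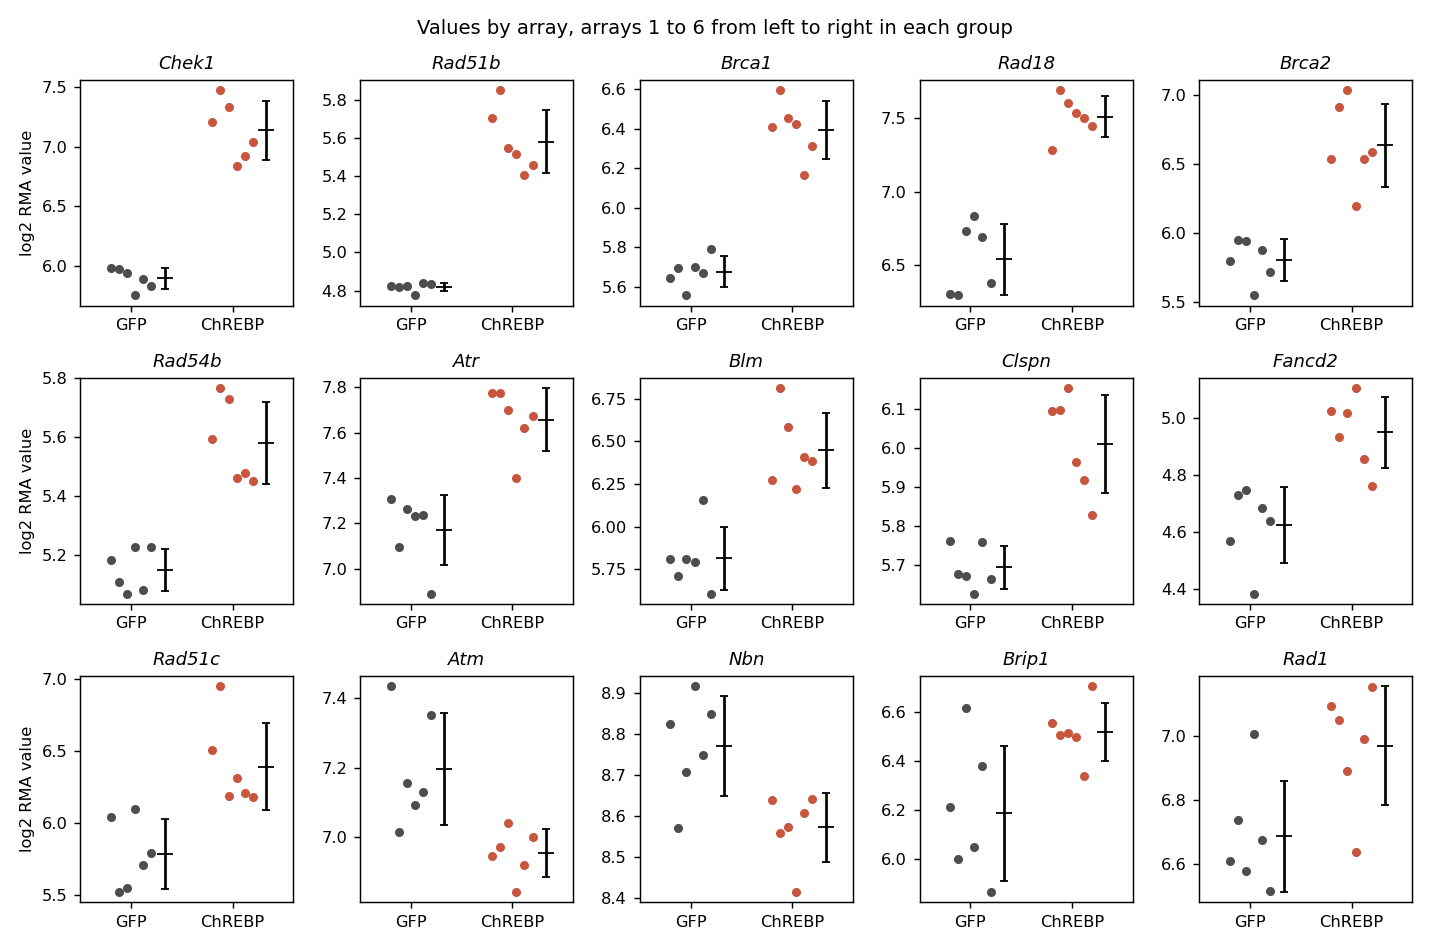
Log2 values of 15 members on each array (dots, arrays 1 to 6 from left to right within GFP and ChREBP), with the group mean and SD beside them. From Chek1 to Rad51c the groups do not overlap, in Rad51b the GFP arrays lie between 4.78 and 4.84, and in Atm, Nbn, Brip1 and Rad1 the groups overlap.

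Brca1 and Brca2 rose, and the partners that bind them rose less or did not pass. Brca1, a ubiquitin ligase that promotes recombination, was 5.56, 5.68 and 5.79 in GFP livers and 6.17, 6.42 and 6.60 in ChREBP livers. The groups did not overlap, and the rise was 0.72 (SE 0.07, 1.64-fold, adjusted p = 2.32e-06). Brca2, which acts downstream of Brca1 in strand exchange, was 5.55, 5.83 and 5.95 against 6.20, 6.56 and 7.04. Its ChREBP arrays were spread widely, from 6.20 on ChREBP 4 to 7.04 on ChREBP 3, and the rise was 0.83 (SE 0.12, 1.78-fold, adjusted p = 0.000168). Brip1, a helicase bound to Brca1, was 5.87, 6.13 and 6.62 against 6.34, 6.51 and 6.70. Only 1 ChREBP array lay above all GFP arrays, and the rise of 0.33 (SE 0.11, adjusted p = 0.0379) was lost under 14 of the 24 alternatives, including the loss of any single array other than GFP 3, GFP 5 and ChREBP 5. Bard1, the obligate partner of Brca1, differed by 0.23 (95% interval 0.05 to 0.40, adjusted p = 0.0572) and did not pass, and its other rows differed by 0.19 and 0.14. It passed under 5 of the 24 alternatives. Palb2, which joins Brca1 to Brca2, differed by 0.01 (95% interval -0.10 to 0.13). Its mean lay among the 25% dimmest genes, where background limits what an array can show.

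Of the enzymes that process the ends and the joint molecules, Blm, the helicase of Bloom syndrome, was 5.61, 5.80 and 6.16 in GFP livers and 6.22, 6.39 and 6.81 in ChREBP livers. The groups did not overlap, the nearest arrays being GFP 5 at 6.16 and ChREBP 4 at 6.22, and the rise was 0.63 (SE 0.11, 1.55-fold, adjusted p = 0.000460). Exo1, the resection nuclease, differed by 0.17 and did not pass (adjusted p = 0.0898).

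The strand exchange paralogs Rad51b, Rad51c and Xrcc3 did not move as 1 group. Rad51b lay between 4.78 and 4.84 on the GFP arrays (median 4.82) and stood at 5.41, 5.53 and 5.85 in ChREBP livers. Its GFP values were below the 25% quantile of gene means (5.17), where background limits what an array can show. The rise of Rad51b was 0.76 (SE 0.07, 1.70-fold, adjusted p = 1.57e-06), and the SD was 0.02 in GFP and 0.17 in ChREBP livers. Rad51c, its partner in one complex, was 5.52, 5.75 and 6.10 against 6.18, 6.26 and 6.95. The highest value, on ChREBP 2, was far above the median, and the rise was 0.61 (SE 0.14, 1.52-fold, adjusted p = 0.00505) without overlap. Xrcc3, another paralog, differed by -0.05 (95% interval -0.17 to 0.08), and Rad52, a strand annealing protein, by 0.05 (95% interval -0.09 to 0.20). Among the later factors of strand exchange, Rad54b, a translocase, was 5.07, 5.14 and 5.23 against 5.45, 5.54 and 5.77. The groups did not overlap, and the rise was 0.43 (SE 0.06, adjusted p = 0.000181). Rad51ap1 differed by 0.24 (adjusted p = 0.0661) and Rad54l, the other translocase, by 0.13 (adjusted p = 0.0676), and neither passed.

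Of the 7 members named Fanc only Fancd2 passed, beside 13.3% of all genes that rose. Fancd2, the protein that receives the ubiquitin mark, was 4.38, 4.66 and 4.75 in GFP livers and 4.76, 4.98 and 5.11 in ChREBP livers. The lowest ChREBP array was only just above the highest GFP array, and the rise was 0.32 (SE 0.07, adjusted p = 0.00405). Its mean lay among the 25% dimmest genes. The core complex and anchor genes differed by 0.22 (Fancb), 0.15 (Fancm, the anchor), 0.10 (Fancc), 0.06 (Fancl, the ligase), 0.05 (Fanca) and 0.03 (Fancg), with adjusted p from 0.0737 to 0.793. The upper ends of their 95% intervals ran from 0.17 to 0.40. Rad18, a ubiquitin ligase that acts on PCNA at blocked forks, was 6.30, 6.54 and 6.83 against 7.28, 7.52 and 7.69, and rose by 0.97 (SE 0.10, 1.96-fold, adjusted p = 8.34e-06) without overlap.

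**Figure D3:**
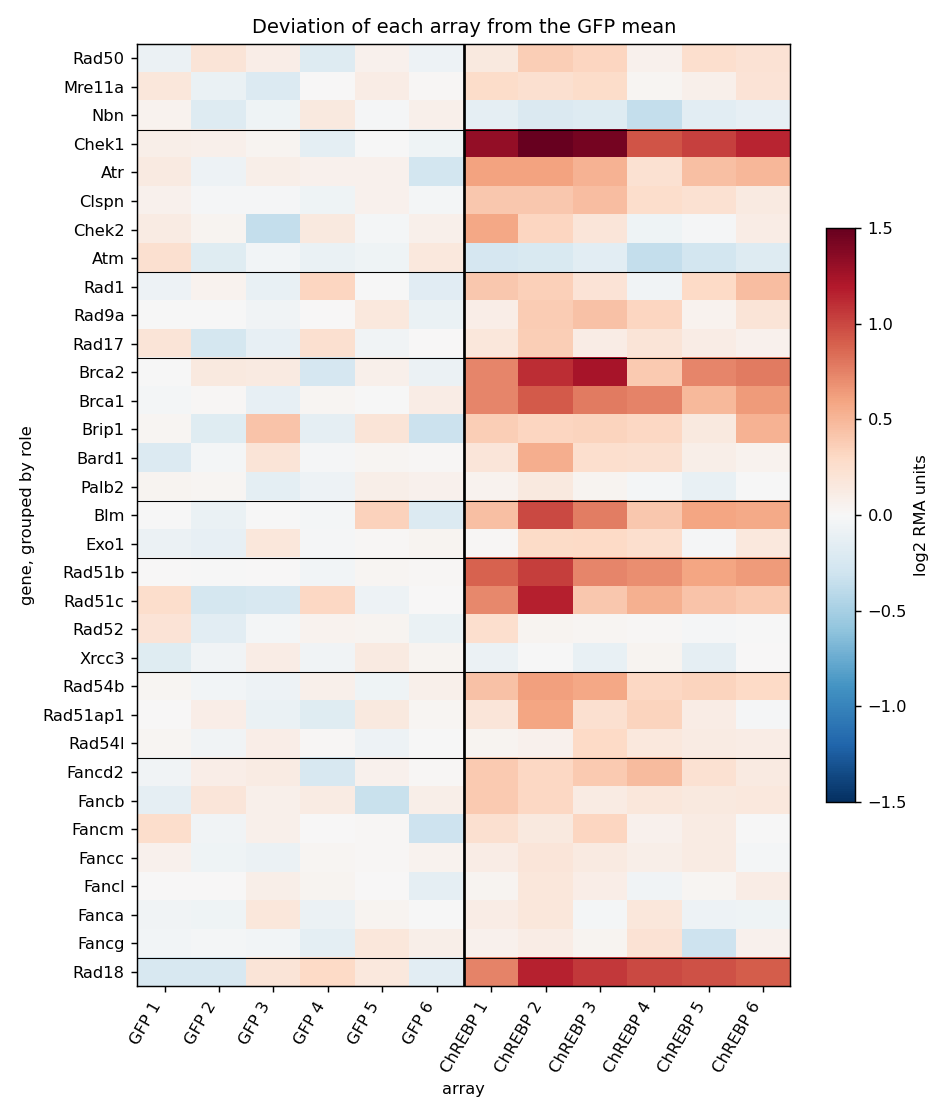
Deviation of each array from the GFP mean of the gene, in log2 units, for the 33 members in rows grouped by role and the 12 arrays in columns, red for higher and blue for lower. Chek1, Brca2, Brca1, Blm, Rad51b, Rad51c and Rad18 are red on all 6 ChREBP arrays, most of them deepest on ChREBP 2, whereas the rows named Fanc stay pale.

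The ChREBP arrays were not equal among themselves. Over the 15 members that rose, the mean was 5.93 to 6.09 on GFP arrays and 6.46 (ChREBP 4), 6.47 (ChREBP 5), 6.52 (ChREBP 6), 6.58 (ChREBP 1), 6.66 (ChREBP 3) and 6.77 (ChREBP 2). ChREBP 2 was the highest ChREBP array for 9 of the 15, and ChREBP 4 was the lowest for 6. The mean of mitosis genes, among them Mki67, was likewise highest on ChREBP 2 (7.48) and ChREBP 3 (7.40), and lowest on ChREBP 6 (7.06). Without ChREBP 2, 12 members rose and 5 were past 1.5-fold, against 15 and 7 on all 12 arrays. That fit holds fewer arrays, and no share over all genes is given beside it.

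Partner genes were set against each other within each array, for 10 pairs chosen after the differences had been seen, so no test is given. Levels of different probes cannot be compared. A shift of their difference between the groups restates, array by array, that the measured changes of the chosen genes were unequal. No share over all gene pairs is given beside it. Chek1 minus Chek2 ran from -0.29 to 0.41 on GFP arrays and from 0.74 to 1.26 on ChREBP arrays, a shift of 1.05 (SE 0.12). Atr minus Atm ran from -0.46 to 0.14 and from 0.56 to 0.83, a shift of 0.73 (SE 0.10). Brca2 minus Palb2 shifted by 0.82 (SE 0.13), Brca1 minus Bard1 by 0.49 (SE 0.08) and Rad54b minus Rad54l by 0.30 (SE 0.07). The ranges of the groups did not overlap in these 5 pairs. Palb2 lies among the 25% dimmest genes, where background limits what an array can show. They overlapped for Rad50 minus Nbn (0.42, SE 0.12) and Brca1 minus Brip1 (0.39, SE 0.16). The shift was smaller for Rad51b minus Rad51c (0.16, SE 0.12), Rad50 minus Mre11a (0.04, SE 0.11) and Rad1 minus Rad9a (0.03, SE 0.14).

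**Figure D4:**
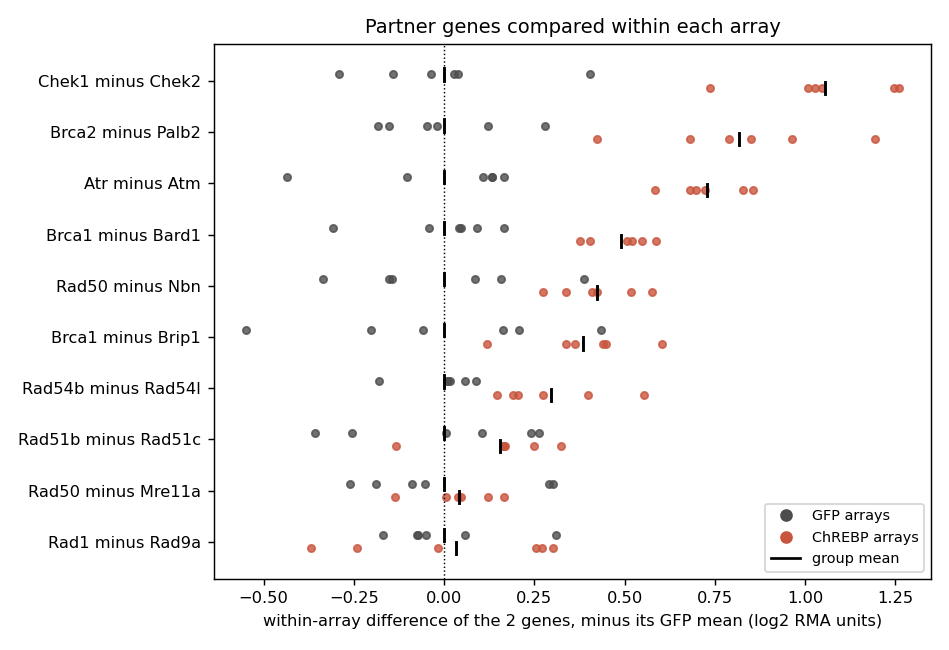
Difference between 2 partner genes within each array, set to 0 at its GFP mean, in log2 units (dots, 6 arrays per group, black bars for the group mean). ChREBP arrays are separated from GFP arrays for Chek1 minus Chek2, Brca2 minus Palb2, Atr minus Atm, Brca1 minus Bard1 and Rad54b minus Rad54l, and mixed with them in the lowest 3 rows. The pairs were chosen after the differences had been seen, and Palb2 is a dim gene.

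Other genes of the same machinery were read from lists of textbook genes, beside 13.3% higher and 13.7% lower over all genes. Of 24 other homologous recombination genes 8 rose and 1 fell, with a median difference of 0.01. Fignl1, an ATPase of recombination, rose by 1.14, the single-strand binding subunits Rpa1 and Rpa2 rose by 0.40 and 0.41, and the junction nuclease Gen1 rose by 0.64. The gene that fell was Dna2, a resection nuclease (-0.29, adjusted p = 0.00402). Of 12 other Fanconi genes 2 rose, namely Usp1, which removes the ubiquitin from Fancd2 (0.29), and Faap20 (0.16), and 0 fell, with a median of 0.09. Fanci, the partner of Fancd2, differed by 0.17 and did not pass (adjusted p = 0.0915). Of 25 other checkpoint and break response genes 12 rose and 1 fell, with a median of 0.16. Wee1, the kinase that restrains Cdk1, rose 2.83-fold. On the log2 scale, the phosphatase gene Cdc25c rose by 0.64, the Atr activator Topbp1 by 0.39 and Tipin, a fork protection factor, by 0.32. The gene that fell was Brcc3, a deubiquitinase of the Brca1 complex (-0.25, adjusted p = 0.00114).

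Other repair pathways held genes that rose and genes that fell, beside 13.3% and 13.7% over all genes. Non-homologous end joining, which rejoins breaks without a template, had 2 of 9 higher (Xrcc4, 0.27, and Lig4, 0.22) and Xrcc5 lower (-0.23). Mismatch repair had Msh6 (0.20) and Pms2 (0.24) higher and Mlh3 (-0.66) and Pms1 (-0.37) lower among 5 genes. Nucleotide excision repair had 1 of 14 higher (Ddb2, 0.26) and 2 lower (Cetn2, -0.30, and Rad23b, -0.21). Base excision and single strand break repair had 2 of 18 higher (Neil3, 0.46, and Parp2, 0.32) and 3 lower (Nthl1, -0.43, Lig3, -0.32, and Parp1, -0.21). The medians of these lists were 0.04, -0.23, 0.06 and -0.06, and their difference from the members was not tested.

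Genes of the cell cycle and of the p53 response were read in the same way, beside 13.3% higher and 13.7% lower over all genes. Of 24 DNA replication genes 17 rose and 1 fell (Mcm10, -0.59), with a median of 0.37, including Rrm2 (1.44), Mcm6 (1.24), Rrm1 (1.23) and Gins2 (0.99). All 19 measured mitosis genes rose, by 0.49 to 1.99, with a median of 1.45, and Birc5 (1.61), Nusap1 (1.38), Top2a (1.99) and Cdk1 (1.65) had the smallest p. Chek1, the member with the largest difference, was thus below the median of the mitosis list. Of 18 genes listed for the E2F and Rb families and factors that act with them, 5 rose and 2 fell, with a median of 0.09. Those that rose were the mitotic factors Foxm1 (0.82) and Mybl2 (0.44), Rbl1 (0.64), Rb1 (0.45) and Tfdp1 (0.36). Those that fell were Rbl2 (-0.29) and Tfdp2 (-0.30). None of the genes E2f1 to E2f8 passed in either direction. Of 11 p53 damage targets 9 rose and 0 fell, with a median of 0.80, including Eda2r (1.47), Ccng1 (1.10), Mdm2 (0.92) and Sesn2 (0.62). These lists were read from the same 12 arrays as the members, and whether their shifts differ from that of the members was not tested.

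**Figure D5:**
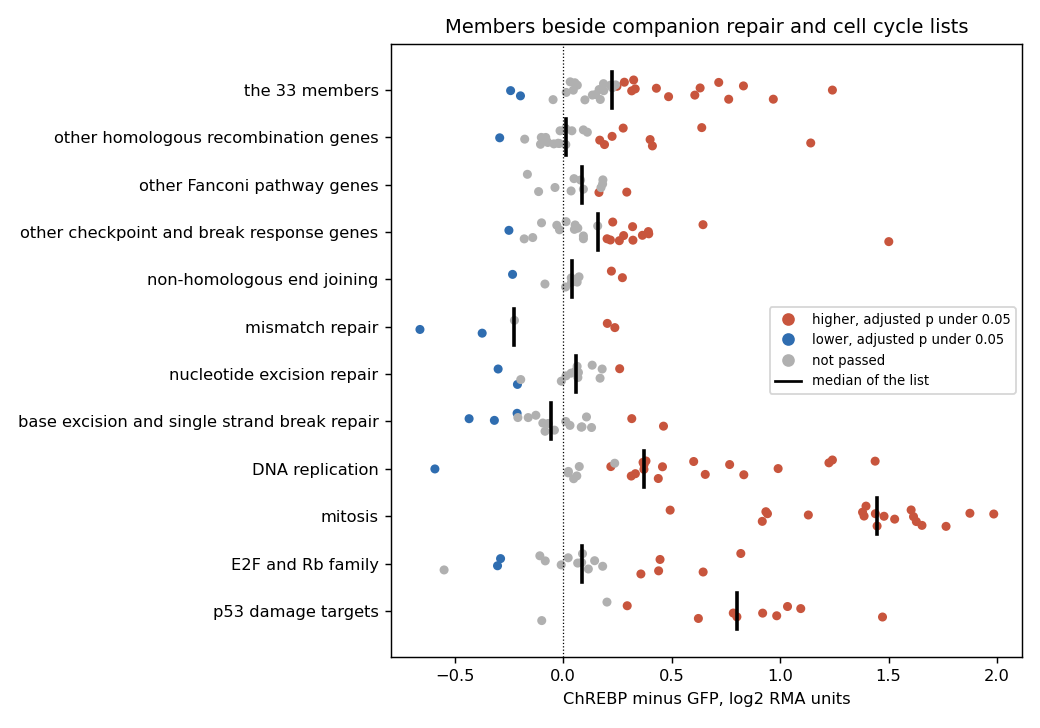
Difference of every measured gene between ChREBP and GFP livers in log2 units, for the 33 members and 11 companion lists in rows (dots, red for genes that rose, blue for those that fell, grey for those that did not pass, black bars for the median). The members' median of 0.23 lies between those of the other repair lists, which reach at most 0.16, and those of DNA replication (0.37) and mitosis (1.45).

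Markers of some cell types moved with the groups too, and the counts below stand beside 13.3% of all genes that rose and 13.7% that fell. Of 13 T and NK cell markers 8 rose and 0 fell, and their mean level was 5.54 to 5.86 on GFP arrays and 5.99 to 6.57 on ChREBP arrays, with Gzma (1.85) and Cd3g (1.07) among those that rose. Of 15 macrophage and Kupffer cell markers 10 rose and 4 fell, and the mean level was 7.91 to 8.09 and 8.33 to 8.63, with Gpnmb (2.17) higher and Timd4, a resident Kupffer cell marker, lower (-1.59). Of 11 hepatocyte markers 0 rose and 9 fell, and the mean level was 12.45 to 12.54 and 12.09 to 12.28. Of the B and plasma cell markers (8 genes) and the neutrophil markers (10 genes) 0 passed in either direction. Among 10 sinusoidal endothelial markers 1 rose, among 10 stellate cell markers 2 rose and 1 fell, among 5 cholangiocyte markers 2 rose, among 8 adipocyte markers 1 rose and 2 fell, among 7 erythroid progenitor markers 1 rose and 1 fell, and among 11 pancreatic acinar markers 1 rose. The part of these cells in the differences of the repair and checkpoint genes was not tested.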

How the data were processed

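Livers of 12 mice, 6 per virus, had been profiled by the authors on Affymetrix mouse gene arrays after Nugen amplification. The deposited values are log2 values made by RMA (background correction, quantile normalization, median polish over probes). RMA and Partek, both with no version, are named in the submitters' processing notes. Detection calls were not used, so no gene is called absent. Symbols came from the platform annotation, updated through the Entrez ID, and only rows with 1 symbol were used (21789 of 35556 rows, 19938 genes), the brightest row standing for a gene. Bard1 had 3 rows and Nbn 2.

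The two-sided moderated test of limma 3.58.1 (R 4.3.3) was fitted to all 12 arrays with the virus as its single term, and p-values were adjusted by Benjamini-Hochberg over 19938 genes, with a threshold of 0.05. The code was tested on simulated data. The 34 members and all lists were chosen with earlier results of these data known. Every member is named. Array values are given for the 12 members with the smallest p, each that fell, and the 2 others with the largest difference, and of each companion list at most 4 genes with the smallest p, or those needed to complete a count. Fanci was named after its value was seen. The 24 alternatives changed the scaling (quantile normalization again, or centring on medians), the genes (a filter on the 25% dimmest, rows averaged per gene, each row on its own), the test (trended robust moderation, array weights, plain analysis of variance, a replicate block) or the arrays (each of 12 left out, and 3 sets with pancreas or adipocyte transcripts). The set with GFP 4 was added after the data were seen. Same-numbered arrays deviated together (correlation over 0.1) in 1 of 6 pairs, so the numbers were not taken as pairs. The number of arrays limits the precision. Each p-value sets a group difference against the spread between arrays of a group, moderated over all genes. With 1 array per mouse, differences between mice and array noise are not separated. No scan dates were used, so no batch was tested.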

Additional observations from a re-analysis of the deposited data

Results flagged for a closer look

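In 66 groups of 6 arrays (33 members, each virus), 5 held an array whose gap to its nearest neighbour took more than the expected share of the group's range, and chance gives about 1 in 20. Blm was 6.16 on GFP 5 (6.158), against 5.61 to 5.81 on the other GFP arrays. Nbn was 8.415 on ChREBP 4, against 8.56 to 8.64 on the other ChREBP arrays, and ChREBP 4 is an array with pancreas transcripts. Chek2 was 5.534 on GFP 3, against 5.86 to 6.04. Rad52 was 7.575 on ChREBP 1, against 7.31 to 7.37. Fancg was 6.396 on ChREBP 5, against 6.75 to 6.92.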

How the results depend on the processing

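Of the 17 members that passed, 11 kept their call under each of the 24 alternatives (Chek1, Rad51b, Brca1, Rad18, Brca2, Rad54b, Atr, Blm, Clspn, Fancd2 and Rad51c), or 23 for Fancd2, which the filter on dim genes removes. The other 6 (Atm, Rad9a, Nbn, Rad50, Brip1 and Rad1) lost it under at least 1. Of the 16 that did not pass, 6 passed under at least 1, and no call changed direction. The filter on dim genes used the mean of all 12 arrays, with a limit of 5.17. Rad51b and Rad54b lay above it only through their ChREBP arrays (GFP means 4.82 and 5.15). Their calls under that filter are therefore no support. The members higher were 15 in the reported fit and 12 to 17 with each array left out in turn, 13 with the analysis of variance and 17 with array weights. The members lower were 2 in the reported fit, 1 to 2 with each array left out, and 0 without ChREBP 4 and ChREBP 5, without GFP 6 and ChREBP 6, or without GFP 4, GFP 6 and ChREBP 6. Fits without some arrays also have less power, and shares over all genes are not given beside their counts. The members past 1.5-fold were 7, or 5 to 7 with each array left out. With the replicate block, which the numbers do not warrant as pairs, 12 members were higher and 1 was lower (Atm). Partner shifts were recomputed under 17 alternatives (normalization, averaged rows and arrays left out), and each of the 10 moved by less than 1 SD between arrays. Companion counts moved by more than 1.5 times under some alternatives, and the cause was not tested. Other homologous recombination genes that rose were 5 to 8 (5 with the repeated quantile normalization and without GFP 4, GFP 6 and ChREBP 6), other Fanconi genes 0 to 4 (0 without GFP 2, 4 without ChREBP 4), mismatch repair genes 0 to 2, end joining genes 1 to 2 and nucleotide excision repair genes 0 to 2, and base excision repair genes that fell were 1 to 4. The counts of genes that fell moved too, with 1 to 2 other homologous recombination genes and 0 to 1 other Fanconi genes. They were 1 to 2 for other checkpoint and break response genes and 1 to 3 for nucleotide excision repair genes. Replication, mitosis, p53 and E2F counts stayed within 1.5 times. Values of dim members such as Palb2, Exo1, Fancb and Fancd2 lie among the 25% dimmest genes, where background limits what an array can show. The GFP values of Rad51b were as low.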
